A study of Mus musculus with 4 samples.

Results

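Regulatory T cells carrying the transcription factor Foxp3 were picked from single cells of mouse inguinal fat that had been sorted on a reporter of choline acetyltransferase, the enzyme that makes acetylcholine and is encoded by Chat. A cell was kept if it had 201 to 4999 detected genes and less than 7.5% of its unique molecular identifiers (UMIs, which count captured mRNA molecules) from mitochondrial genes. A kept cell was taken as a regulatory T cell if it had at least 1 UMI of Foxp3, at least 2 UMIs of the CD3 chains Cd3d, Cd3e and Cd3g together, and no UMI of Cd79a (B cells), C1qa (macrophages), Trdc (γδ T cells) or Top2a (dividing cells). This gave 2285 cells of 21249 kept cells, or 10.8%, from 26654 barcodes in all. They made up 42.9% of the 5330 kept cells that met the CD3 and exclusion conditions, and 59.99% of the 3809 kept cells with any Foxp3 UMI.

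The mice were males of the ChATBAC-eGFP line, in which Chat regulatory sequence on a bacterial artificial chromosome drives green fluorescent protein. All were 5 weeks of age when housing at 30 °C began, stayed there for 3 weeks, and then spent the last 4 h at either 30 °C or 4 °C. The animals sent to 4 °C were first kept for a day at room temperature, so that step and the cold cannot be told apart. Each temperature had 2 libraries, each from the digested inguinal fat of 4 pooled mice, sorted for live single cells with reporter fluorescence. Regulatory T cells without fluorescence were therefore not sampled, and p-values below measure the spread between pools of mice.

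The 30 °C libraries held 554 and 535 regulatory T cells (libraries 1 and 2 in this order, here and throughout), and the 4 °C libraries held 610 and 586. As a share of kept cells these were 10.7% and 9.93% at 30 °C and 11.5% and 11% at 4 °C. Their summed counts were 3464165 and 3179324 UMIs at 30 °C against 4183268 and 3852045 UMIs at 4 °C. The median cell had 5286 and 5108 UMIs at 30 °C against 5747.5 and 5855.5 UMIs at 4 °C, so the cold cells were somewhat deeper in both libraries. The median share of mitochondrial UMIs was 4.27% and 4.29% at 30 °C against 3.69% and 3.89% at 4 °C, lower in both cold libraries. The libraries shared 81 cell barcodes over all pairs of libraries, and no barcode was a regulatory T cell in both. Levels below are counts-per-million (CPM), the UMIs of a gene scaled to the summed UMIs of the regulatory T cells of its library, and a change is the log2 ratio of 4 °C over 30 °C with its standard error (SE).

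Regulatory T cells are CD4 T cells that hold other immune cells in check, and Foxp3 is the factor that fixes their fate. In fat, a resident population carries the interleukin 33 receptor Il1rl1, the transcription factors Gata3 and Pparg and the receptor Klrg1, and can secrete amphiregulin, a growth factor that acts on the epidermal growth factor receptor of stromal and epithelial cells. Signals through the T cell receptor switch on immediate early genes in these cells within minutes to hours, while glucocorticoid hormone acts through its nuclear receptor on genes such as Fkbp5 and Tsc22d3.

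The marker genes fixed for these cells were found in most of them. In the lowest of the 4 libraries, a UMI of Ikzf2 (the factor Helios) was present in 93.8% of the cells, of the inhibitory receptor Ctla4 in 93.2%, and of the costimulatory receptor Tnfrsf4 (OX40) in 88.8%. Cd4 itself, which the rule did not use and which is sparsely captured, had a UMI in 51.1% and 50.8% of the cells at 30 °C and in 59.7% and 60.6% at 4 °C. The Foxp3 condition was met at its limit, with 1 UMI, by 698 cells or 30.5%, and the median cell had 2. The CD3 condition was met at its limit of 2 UMIs by 7 cells, and 8 cells with a Foxp3 UMI lay just outside with 1. Another 1394 cells with Foxp3 and CD3 were left out for a UMI of an excluded gene, of which 902 had Top2a and 558 had Cd79a.

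The promoters of 4 genes that changed at 4 °C are printed first, because each held a short DNA word of those named below. They are the 250 bases before the RefSeq start site on the GRCm38.p6 assembly, written 5′ to 3′ along the gene, with the word in capitals. The words searched on both strands were the cAMP response element TGACGTCA, the forkhead (FOXO) word GTAAACA, the interferon-stimulated response element (GAAA, any 2 bases and GAAA) and the CArG box of serum response factor. Areg has a cAMP response element that begins 61 bases before its start (chr5:91139349-91139598, plus strand). Isg15 has 3 overlapping interferon response elements, the first beginning 78 bases before its start (chr4:156200819-156201068, minus strand). Zfp36 has a CArG box that begins 58 bases before its start (chr7:28379229-28379478, minus strand), and Txnip a forkhead word that begins 121 bases before its start (chr3:96557707-96557956, plus strand). The GENCODE annotation of Zfp36 begins further upstream than the RefSeq start, so its window lies within the gene there.
Areg: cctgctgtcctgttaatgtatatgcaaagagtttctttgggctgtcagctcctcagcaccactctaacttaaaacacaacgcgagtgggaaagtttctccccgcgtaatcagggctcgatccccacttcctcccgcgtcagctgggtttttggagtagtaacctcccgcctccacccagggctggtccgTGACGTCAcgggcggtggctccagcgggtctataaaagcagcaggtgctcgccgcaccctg
Isg15: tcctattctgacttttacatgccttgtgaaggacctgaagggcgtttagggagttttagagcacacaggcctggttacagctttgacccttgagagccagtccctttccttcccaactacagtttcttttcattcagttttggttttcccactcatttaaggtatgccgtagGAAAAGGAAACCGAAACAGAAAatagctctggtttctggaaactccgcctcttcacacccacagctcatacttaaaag
Zfp36: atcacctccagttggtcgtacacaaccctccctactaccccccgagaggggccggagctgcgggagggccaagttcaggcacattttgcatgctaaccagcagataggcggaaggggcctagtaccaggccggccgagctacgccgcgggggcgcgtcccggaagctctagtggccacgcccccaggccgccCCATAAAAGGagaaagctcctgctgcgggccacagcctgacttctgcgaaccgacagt
Txnip: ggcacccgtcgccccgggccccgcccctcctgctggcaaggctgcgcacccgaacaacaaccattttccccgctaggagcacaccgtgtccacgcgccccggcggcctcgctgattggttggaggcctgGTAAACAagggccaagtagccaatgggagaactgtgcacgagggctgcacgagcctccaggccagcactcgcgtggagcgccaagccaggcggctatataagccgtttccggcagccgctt
Over the same windows of all 32851 promoters, the cAMP response element occurred in 1.55%, the forkhead word in 3.17%, the interferon element in 2.98% and the CArG box in 1.47%. Among matched genes, the cAMP response element was in 3 of the 104 that rose (2.88%) and 3 of the 152 that fell (1.97%). It was in 3.31% of the 7813 matched genes tested. The CArG box was in 5 of the 104 genes that rose and 5 of the 152 that fell, 4.81% and 3.29%, against 1.34% of the genes tested. The interferon element was in 6 of the genes that rose and 6 of those that fell (5.77% and 3.95%, against 3.35%), and the forkhead word in 3 and 7 (2.88% and 4.61%, against 2.74%). A match is a description of the sequence and does not show that a factor was bound.

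After 4 h at 4 °C, regulatory T cells held more mRNA of amphiregulin, interleukin 10 and tumour necrosis factor. Of 25 tested immediate early genes 10 rose, and of 22 tested glucocorticoid receptor targets 12 fell and 1 rose. All gene lists here were drawn up with earlier results of these data known, so such counts are descriptions. Il7r and a few other genes of resting T cells fell too. The genes that define the lineage were close to level between the temperatures, and so was Chat. Of 9954 genes tested in the summed counts, 312 passed an adjusted p of 0.05 in edgeR's quasi-likelihood test with Benjamini-Hochberg adjustment, or 3.13% of those tested. Of these, 126 genes rose (1.27% of those tested) and 186 fell (1.87%). Counts of called members of the gene lists below stand against these shares. Scaling by library size in place of TMM factors gave 180 that rose and 138 that fell. The median change over all tested genes was -0.0016. Groups that do not overlap were common at 2 libraries against 2: both cold libraries lay above both warm ones in 29.2% of the genes tested and below them in 19.8%, together 49%, so separate groups alone are no result about a gene.

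**Figure D1:**
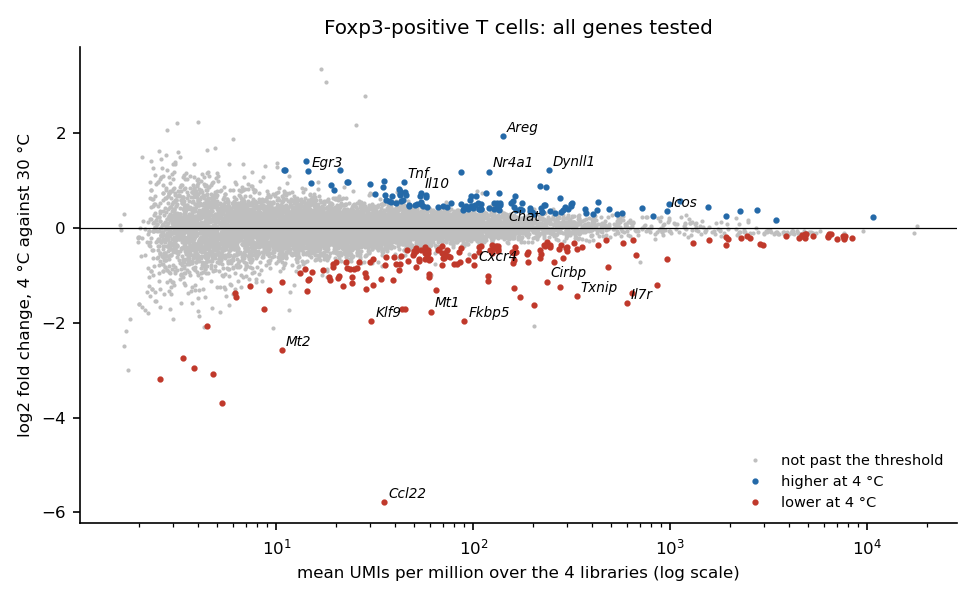
Each point is 1 of the 9954 genes tested in regulatory T cells, with its mean level (CPM, log axis) on the horizontal axis and its log2 change, 4 °C over 30 °C, on the vertical axis. Blue and red mark the 126 genes that rose and the 186 that fell at an adjusted p under 0.05 in edgeR's test, and grey marks the rest. Areg, at 1.93, stands above other genes of its abundance, while Fkbp5, Il7r and Zfp36l2 lie far below 0.

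Amphiregulin (Areg, chr5:91139599-91148432 in mm10) had the largest rise among the genes past the threshold. Its level was 62.4 and 52.2 CPM at 30 °C against 223 and 227 CPM at 4 °C. Both cold libraries stood far above both warm ones, and the libraries within a temperature lay close together. The log2 change was 1.93 (SE 0.10, adjusted p = 1.77e-06). More cells carried the mRNA: 61 and 64 cells at 30 °C had an Areg UMI, and 170 and 153 cells at 4 °C. No single cell decided these levels, as the richest cell held at most 11.3% of the Areg UMIs of its library.

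To set the depth of the cells equal, each was thinned at random to 3600 UMIs, which left out 58, 85, 37 and 29 shallower regulatory T cells in the 4 libraries. At that depth an Areg UMI was found in 8.87% (exact 95% interval 6.52 to 11.7) and 9.78% (7.19 to 12.9) of the cells at 30 °C. At 4 °C the share was 23.7% (20.3 to 27.4) and 22.1% (18.7 to 25.8). B cells of the same libraries, taken as a background class and deeper before thinning (median 7896 to 8400 UMIs), had a share of at most 0.240%. The intervals cover counting error only. The Areg shares in regulatory T cells thus lay far above those in B cells, and the intervals at 4 °C did not overlap those at 30 °C.

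Regulatory T cells with a UMI of Il1rl1 or Klrg1 had more Areg mRNA than the others. Such cells with a UMI of Il1rl1 or Klrg1 numbered 170 and 135 at 30 °C and 176 and 168 at 4 °C. Their Areg level was 100 and 90.7 CPM at 30 °C against 370 and 470 CPM at 4 °C, a log2 change of 2.05. In the other regulatory T cells it was 43.6 and 37.2 CPM at 30 °C against 157 and 131 CPM at 4 °C, a log2 change of 1.79. Areg thus rose in both, from a higher level in the first. At equal depth, Areg was found at 4 °C in 37.8% and 34.3% of the cells with an Il1rl1 UMI, and in 21.4% and 20.3% of the cells without one. Split by Gata3, Areg was found at 30 °C in 11.6% and 14.5% of the cells with a Gata3 UMI against 7.17% and 7.38% of those without. At 4 °C these shares were 25.5% and 20.5% against 22.7% and 23.0%, with the order turned in library 2. The split by these genes was chosen after the data were seen, and cells missing their UMIs may still have expressed them.

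Of 32 genes listed for regulatory T cells of fat and other tissues, 31 were tested and 2 rose, Areg and Il10, with none falling. These made up 6.45% of the tested members, against 3.13% of all genes tested, so the count says little about the list as a whole. The median change of the list was 0.11. Interleukin 10 (Il10, chr1:131019845-131024974), a cytokine that restrains inflammation, had 44.5 and 35.2 CPM at 30 °C against 72.4 and 64.6 CPM at 4 °C. The groups did not overlap, and the log2 change was 0.74 (SE 0.12, adjusted p = 0.00946). Without library 1 of 4 °C, Il10 missed the threshold (0.64, adjusted p = 0.0898). At equal depth an Il10 UMI was found in 10.1% and 8.44% of the cells at 30 °C and 13.6% and 11.8% at 4 °C, against at most 1.59% of B cells.

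The other defining genes of fat regulatory T cells did not pass the test. Il1rl1 had 75.1 and 58.2 CPM at 30 °C against 54.0 and 52.2 CPM at 4 °C (log2 change -0.37, adjusted p = 0.141), and passed without library 2 of 30 °C (-0.54, adjusted p = 0.0243). Gata3 was at 126 to 154 CPM in the 4 libraries (0.08, adjusted p = 0.72), and Klrg1 at 74.3 to 86.0 CPM (-0.11, adjusted p = 0.623). Ccr2, a chemokine receptor of cells that enter inflamed tissue, had 199 and 203 CPM at 30 °C against 263 and 243 CPM at 4 °C, and fell short of the threshold (adjusted p = 0.0636). Pparg, the nuclear receptor that marks visceral fat regulatory T cells, was too sparse to test, at 1.57 to 2.86 CPM in the 4 libraries. These genes of the list, other than Areg and Il10, were named after their values were seen.

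Of the 20 genes listed for regulatory T cell identity, all were tested, 2 rose and none fell, with a median change of 0.03. Called members made up 10% of the list, against 3.13% of all genes tested. Icos, a costimulatory receptor, had 839 and 828 CPM at 30 °C against 1134 and 1039 CPM at 4 °C (log2 change 0.34, SE 0.06, adjusted p = 0.00895). Cd5, a brake on T cell receptor signals, had 228 and 227 CPM at 30 °C against 282 and 301 CPM at 4 °C (0.31, SE 0.07, adjusted p = 0.0325), a call that was lost without library 1 or 2 of 30 °C or library 2 of 4 °C (0.27 to 0.31, adjusted p = 0.114 to 0.153). Both were higher in each cold library than in each warm one.

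The marker genes themselves stayed near level. Ikzf2 had 1272 and 1286 CPM at 30 °C against 1389 and 1435 CPM at 4 °C (log2 change 0.10, adjusted p = 0.27). Ctla4 had 1205 and 1128 CPM at 30 °C against 1265 and 1124 CPM at 4 °C, with the groups overlapping (-0.01, adjusted p = 0.97). Tnfrsf4 had 1383 and 1215 CPM at 30 °C against 1118 and 1221 CPM at 4 °C (-0.20, adjusted p = 0.149). None of the 3 passed the test, though Tnfrsf4 did without library 2 of 30 °C (-0.28, adjusted p = 0.0492). Foxp3, given only as a description because it chose the cells, had 460 and 433 CPM at 30 °C against 425 and 455 CPM at 4 °C. Cd3d, also part of the rule, had 1118 and 1168 CPM at 30 °C against 1260 and 1222 CPM at 4 °C.

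Genes switched on by the T cell receptor formed the list with the most rises. Of 26 listed immediate early genes 25 were tested, 10 rose and none fell, and the median change was 0.43. The nuclear receptor Nr4a1, a standard readout of T cell receptor signals, had 66.4 and 77.1 CPM at 30 °C against 141 and 194 CPM at 4 °C (log2 change 1.18, SE 0.14, adjusted p = 0.00144). Its share of cells at equal depth went from 14.9% and 18.4% at 30 °C to 28.8% and 32.3% at 4 °C, and in B cells from 11.5% and 12% to 22% and 21.2%. In both classes the cold libraries had the higher shares.

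Other factors of the same kind rose with it. Egr3 went from 7.79 and 9.44 CPM at 30 °C to 18.9 and 21.5 CPM at 4 °C (log2 change 1.19, SE 0.20, adjusted p = 0.00975). Nr4a3, a relative of Nr4a1, went from 17.6 and 13.2 CPM to 27.5 and 34.3 CPM (0.95, adjusted p = 0.0249). The AP-1 subunit Fosl2 went from 15 and 15.4 CPM to 29.2 and 31.4 CPM (0.95, SE 0.16, adjusted p = 0.00975). Junb, another AP-1 subunit and the most abundant gene of the list, rose from 1281 and 1330 CPM to 1833 and 1790 CPM (0.43, adjusted p = 0.000556). In each of these genes both cold libraries lay above both warm ones. The others past the threshold were Jund, Fos, Dusp5, Nfkbid and Ier5. Leaving out a library ended the call of Nr4a3 (library 2 of either temperature, 0.77 and 0.79), of Fos (library 1 of either, 0.49 and 0.36) and of Ier5 (each of the 4, 0.27 to 0.37).

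Of 18 genes of the NF-κB pathway all were tested, 3 rose and none fell (median 0.21). The 3 encode nuclear regulators of NF-κB, namely Nfkbid (log2 change 0.67, adjusted p = 0.00347), Nfkbiz (0.57, adjusted p = 0.00842) and Bcl3 (0.57, adjusted p = 0.0415), the last lost without library 1 of 30 °C or either library of 4 °C (0.49 to 0.62). Of the genes listed for helper T cell lineages, 17 of 22 were tested and 1 rose. This was Tnf, the inflammatory cytokine (chr17:35199381-35202007), with 29.7 and 29.3 CPM at 30 °C against 57.6 and 60.5 CPM at 4 °C. Its log2 change was 0.96 (SE 0.11, adjusted p = 0.00118), and the libraries of each temperature lay close together.

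**Figure D2:**
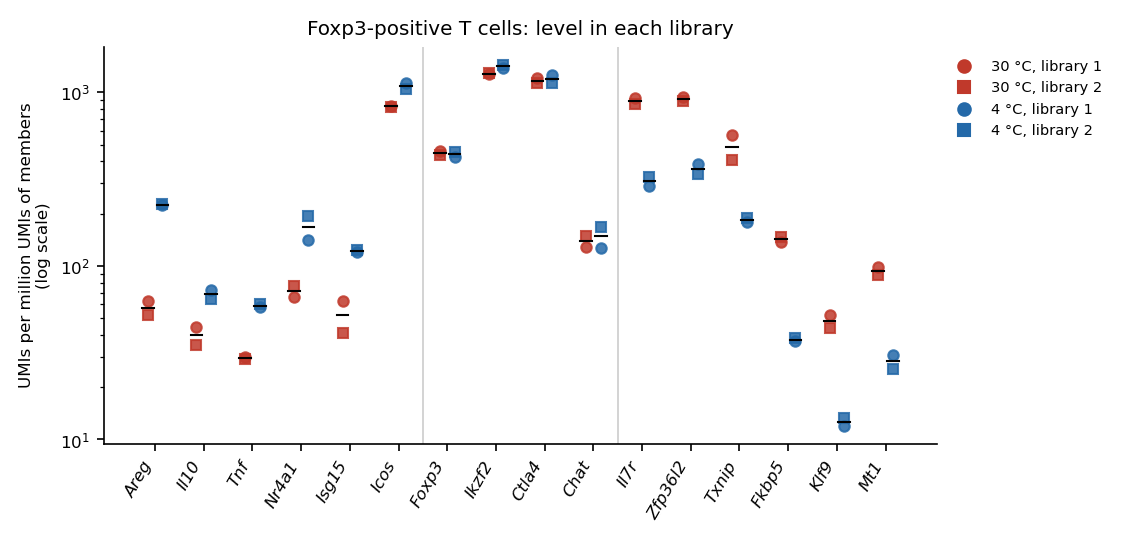
Each gene along the horizontal axis has its level in CPM of regulatory T cell UMIs (shared log axis) in the 4 libraries. Red marks 30 °C and blue 4 °C. Circles are library 1, squares library 2 and a black bar the mean of a temperature. Areg, Il10, Tnf, Nr4a1, Isg15 and Icos lie higher at 4 °C, Il7r, Zfp36l2, Txnip, Fkbp5, Klf9 and Mt1 lie lower, and Foxp3, Ctla4 and Chat overlap. Ikzf2 lies slightly higher in both libraries at 4 °C but did not pass the test.

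Many targets of the glucocorticoid receptor fell. Of 25 listed 22 were tested, 12 fell and 1 rose, and the median change was -0.65. As the list was drawn up with earlier results of these data known, the count is no independent test of the pathway. Fkbp5, a co-chaperone that the hormone induces and that dampens its receptor (chr17:28399094-28517527), had 138 and 148 CPM at 30 °C against 36.8 and 38.4 CPM at 4 °C. Both cold libraries stood far below the warm ones, with a log2 change of -1.96 (SE 0.10, adjusted p = 1.77e-06). At equal depth a Fkbp5 UMI was found in 36.7% and 36.7% of the cells at 30 °C and in 11.2% and 12% at 4 °C.

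Klf9, a transcription factor induced by glucocorticoid, went from 52.2 and 43.7 CPM at 30 °C to 12 and 13.2 CPM at 4 °C (log2 change -1.97, SE 0.16, adjusted p = 9.41e-05). The metallothionein Mt1, a metal-binding protein, went from 98.4 and 88.4 CPM to 30.8 and 25.4 CPM (-1.77, SE 0.12, adjusted p = 1.39e-05). Mt2, its neighbour in function, went from 24.2 and 12 CPM to 2.39 and 3.89 CPM (-2.58, SE 0.39, adjusted p = 0.0053), though 33 of its 84 UMIs in library 1 of 30 °C came from a single cell. All 3 were lower in both cold libraries. Tsc22d3, which encodes the glucocorticoid-induced leucine zipper, and Ddit4, an inhibitor of the growth kinase mTOR, were named after their values were seen, with log2 changes of -1.64 (adjusted p = 3.3e-06) and -1.28 (adjusted p = 1.33e-05).

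Some members of that list did not fall. Zfp36 rose, and the receptor gene Nr3c1 (log2 change -0.19, adjusted p = 0.355), Per1 (-0.29, adjusted p = 0.315) and Dusp1 (-0.15) did not pass the test. Of the clock genes 19 of 21 were tested and Dbp, an output gene of the clock, rose (0.68, adjusted p = 0.0229), with a list median of -0.02. Its call was lost without library 1 of 30 °C or either library of 4 °C (0.56 to 0.69).

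Some genes that hold T cells in a resting state fell. Of 16 listed, all tested, 4 fell, 11 did not pass, and Cd44, an adhesion receptor of activated T cells, rose by 0.42 (adjusted p = 0.024), with a median of -0.30. Cd44 was named after its values were seen, and its call was lost without either library of 30 °C or library 2 of 4 °C (0.36 to 0.46). Il7r, the receptor for the survival cytokine interleukin 7 (chr15:9505788-9530176), had 932 and 859 CPM at 30 °C against 290 and 326 CPM at 4 °C. The log2 change was -1.58 (SE 0.07, adjusted p = 1.11e-06), and no cold library came near a warm one. Klf2, the factor that keeps T cells circulating (chr8:72319033-72321656), had 280 and 247 CPM at 30 °C against 185 and 163 CPM at 4 °C (-0.64, SE 0.09, adjusted p = 0.00407), a call lost when Top2a-positive cells were kept (-0.47, adjusted p = 0.088). Klf3 and Foxp1, further factors of quiescent T cells, fell by 0.54 (adjusted p = 0.0114) and 0.53 (adjusted p = 0.00983) on the log2 scale, that of Klf3 being lost without library 1 of 4 °C (-0.49, adjusted p = 0.124). The homing receptor Ccr7, a direct marker of such cells, had a log2 change of -0.01 and did not pass the test.

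FOXO factors drive several genes of growth arrest. Of 20 genes listed for them, all tested, 6 fell and none rose (median -0.36). Of these Il7r, Txnip and Pik3ip1 also stand in the glucocorticoid list, and Il7r and Klf2 in the resting list. Zfp36l2, Cxcr4 and Ucp2, named below, are in the glucocorticoid list too. Nfkbid is in both the immediate early and NF-κB lists. The counts of these lists are thus not separate results. Txnip, an inhibitor of glucose uptake and thioredoxin (chr3:96557957-96561883), had 565 and 406 CPM at 30 °C against 179 and 189 CPM at 4 °C (log2 change -1.45, SE 0.13, adjusted p = 0.000135). Pik3ip1, which restrains phosphoinositide 3-kinase, had 69.6 and 62.9 CPM at 30 °C against 20.3 and 21.5 CPM at 4 °C (-1.71, SE 0.12, adjusted p = 2.55e-05). The remaining pair, Trp53inp1 and Sesn1, fell by 0.56 and 0.45 on the log2 scale, and Sesn1 did not pass without library 2 of 30 °C or either library of 4 °C (-0.46 to -0.40).

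The Zfp36 proteins bind AU-rich stretches of cytokine mRNAs and mark them for decay, and the 3 family members moved in opposite directions. Zfp36l2 (chr17:84183931-84187947) had 937 and 896 CPM at 30 °C against 384 and 340 CPM at 4 °C (log2 change -1.38, SE 0.07, adjusted p = 1.77e-06). Zfp36, whose promoter with the CArG box is given above, rose from 246 and 264 CPM to 363 and 390 CPM (0.52, SE 0.07, adjusted p = 0.00304). Zfp36l1 rose from 592 and 621 CPM to 801 and 858 CPM (0.41, SE 0.06, adjusted p = 0.00347). In each case the groups did not overlap, and the directions were the same when scaled by library size or by DESeq2. None of the other 8 genes of this list, decay factors and their partners, passed the test.

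Among genes induced by interferon, 29 of 30 were tested, 5 rose and none fell (median 0.20). Isg15, a ubiquitin-like modifier with the 3 interferon elements above (chr4:156199424-156200818), had 62.4 and 41.2 CPM at 30 °C against 120 and 123 CPM at 4 °C (log2 change 1.18, SE 0.15, adjusted p = 0.00188). The cold libraries lay above the warm ones for Isg15, but libraries of 1 temperature were far apart in other genes. Ifit1, named after its values were seen, had 41.3 and 5.35 CPM at 30 °C against 36.3 and 18.4 CPM at 4 °C. Without library 1 of 30 °C 10 genes of the list rose (median 0.60), and without library 2 of 30 °C 2 rose (median -0.03).

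**Figure D3:**
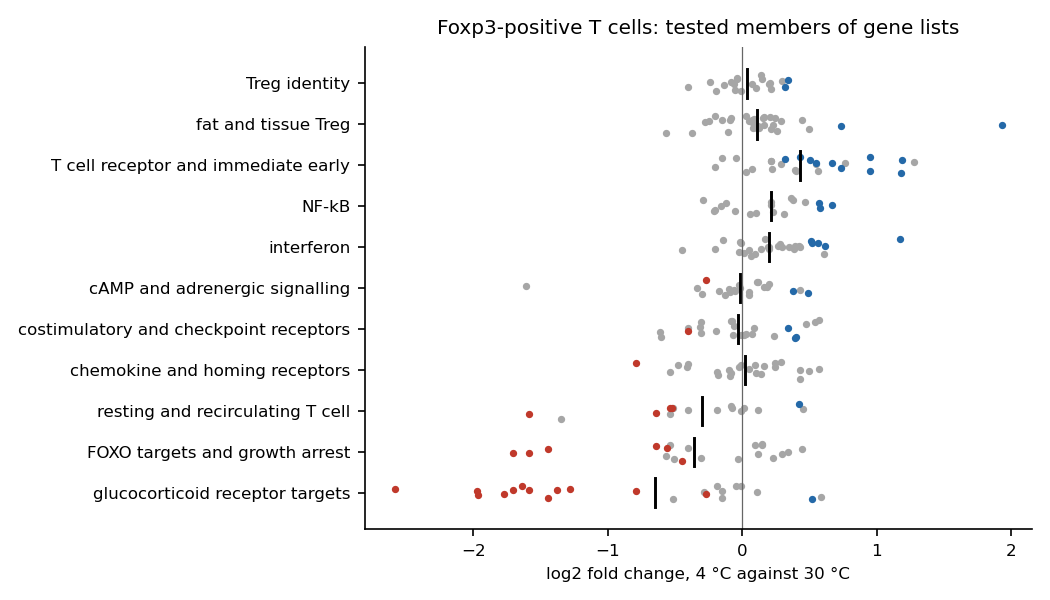
Each point is the log2 change (4 °C over 30 °C, horizontal axis) of a tested gene in 1 of 11 gene lists, with genes that rose at an adjusted p under 0.05 in edgeR's test in blue, genes that fell in red, other genes in grey and the list median as a black bar. The immediate early list has a median of 0.43 and the glucocorticoid list one of -0.65, while the regulatory T cell identity list centres at 0.03.

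Genes with the largest changes outside these lists were of mixed kinds. Among rises, the dynein light chain Dynll1 went from 132 and 152 CPM at 30 °C to 333 and 346 CPM at 4 °C (log2 change 1.21, SE 0.08, adjusted p = 1.39e-05). Art2b, an ecto-enzyme of T cells that transfers ADP-ribose, Ahdc1, Spin2c and the stress kinase Plk3 rose by 1.21, 1.21, 1.39 and 0.97. All had both cold libraries above both warm ones, which the choice of named genes required. Ifitm3, an antiviral membrane protein, rose by 1.22 (adjusted p = 0.0229), but it was found in only 15 to 30 cells of a library, of which the 3 richest held at least 50% of its UMIs. Leaving out a library ended the call of Ifitm3 (library 2 of either temperature, 0.88 and 1.02), of Art2b (library 1 of 30 °C or 2 of 4 °C, 0.99 and 0.98) and of Ahdc1 (library 1 of 30 °C or either of 4 °C, 0.98 to 1.26).

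Several of the steepest falls rested on few molecules. Ccl22, Stfa3, Rapgef3, Ston1 and Ppp2r3a met the filter on low counts only through the 30 °C libraries, where they were high, so a fall was built into their entry. They were not tested when at least 10 UMIs were required in every library. Ccl22, a chemokine of activated dendritic cells, changed by -5.77 (SE 1.28, adjusted p = 0.0375) from 30 and 411 UMIs at 30 °C to 1 and 9 UMIs at 4 °C. Of the 411 UMIs, 386 came from 1 cell, and of the 30 UMIs, 29 came from 1 cell. The change thus rested largely on 2 cells, and it did not pass without library 2 of 30 °C (-2.80, adjusted p = 0.0556) or without either library of 4 °C (-4.89 and -7.98). Stfa3, a protease inhibitor, had 18 and 13 UMIs at 30 °C against 2 and 2 UMIs at 4 °C (-3.18, adjusted p = 0.0163). Rapgef3, an exchange factor activated by cAMP, had 25 and 20 UMIs at 30 °C against 2 and 5 UMIs at 4 °C (-2.95, adjusted p = 0.0108). Ston1, an adaptor of endocytosis, had 24 and 32 UMIs at 30 °C against 2 and 6 UMIs at 4 °C (-3.08, adjusted p = 0.00895). Ppp2r3a (-2.07) and Bcl2l15 (-1.71) were also sparse. The calls of Stfa3 (-3.34 to -3.00) and Ppp2r3a (-2.59 to -1.66) were lost when any 1 of the 4 libraries was left out, those of Rapgef3 (-2.84 and -2.40) and Bcl2l15 (-1.19 and -1.39) without library 1 of either temperature, and that of Ston1 without library 2 of 30 °C (-2.79).

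Cyclic AMP carries the signals of adrenergic and prostaglandin receptors, by which nerves and tissue cells act on T cells. Of 24 genes of cAMP and adrenergic signalling 22 were tested, 2 rose, 1 fell and the median was -0.02. Ptger4, a prostaglandin E2 receptor, rose from 86.3 and 92.2 CPM at 30 °C to 121 and 137 CPM at 4 °C (log2 change 0.49, adjusted p = 0.0187). Ppp1r15a, which restores translation after stress, rose by 0.38 (adjusted p = 0.0427), and Rgs1, a brake on G protein signals, fell by 0.27 (adjusted p = 0.0308). None of the 3 calls was firm, as Ppp1r15a lost it when any 1 of the 4 libraries was left out (0.34 to 0.42), Rgs1 without library 1 or 2 of 30 °C or 1 of 4 °C (-0.27 to -0.25), and Ptger4 without library 1 of 30 °C or 2 of 4 °C (0.44 and 0.41).

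In lists of receptors and cytokine pathways only 1 to 4 members passed the test, and 3.13% of all genes tested did so. Of 24 tested homing receptor genes Cxcr4 fell, from 118 and 135 CPM at 30 °C to 76.7 and 73.7 CPM at 4 °C (log2 change -0.79, SE 0.10, adjusted p = 0.0017), with a list median of 0.02. Of 24 tested costimulatory and checkpoint receptors 3 rose and 1 fell (median -0.03): Icos, Cd27 (0.39, adjusted p = 0.00761) and Vsir (0.40, adjusted p = 0.0409) rose, and Slamf6 fell (-0.40, adjusted p = 0.0324). Cd27 lost its call without library 1 of 30 °C (0.36), Slamf6 without that library or library 2 of 4 °C (-0.29 and -0.34), and Vsir without either library of 30 °C or library 2 of 4 °C (0.33 to 0.42). Of 16 genes of interleukin 2 signalling the kinase Pim1 rose (0.40, adjusted p = 0.00418). The interleukin 2 receptor chain Il2ra, by which these cells consume that cytokine, had 358 and 289 CPM at 30 °C against 327 and 323 CPM at 4 °C (-0.04, adjusted p = 0.867). Of 16 tested genes of the TGF-β pathway, the ligand Tgfb1 rose from 132 and 121 CPM at 30 °C to 195 and 186 CPM at 4 °C (0.55, SE 0.08, adjusted p = 0.00491). Its receptor Tgfbr1 rose from 79.4 and 68.3 CPM to 117 and 123 CPM (0.65, adjusted p = 0.00491), while Lrrc32, which holds the latent ligand on the cell, was at 37.8 to 49.1 CPM (0.21, adjusted p = 0.385).

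Chat, whose reporter the cells were sorted on, had 128 and 148 CPM at 30 °C against 127 and 168 CPM at 4 °C. The groups overlapped, and the log2 change was 0.05 (SE 0.12, adjusted p = 0.867), ranging from -0.15 without library 2 of 4 °C to 0.24 when another library was left out. A Chat UMI was found in 233 and 258 cells at 30 °C and in 266 and 302 cells at 4 °C. At equal depth the share was 30.8% and 34.9% at 30 °C and 29.8% and 37.5% at 4 °C. The means were 32.9% ± 2.86 (SD, n = 2) and 33.7% ± 5.43 (SD, n = 2), a difference of 0.815 percentage points (p = 1, two-sided exact permutation test). With 2 libraries against 2 this test cannot go below 0.333, so it could not have passed, here or for the share given further on. In both groups library 2 was the higher, by more than the groups differed.

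Other cells of the same sort also carried Chat UMIs. Foxp3-negative CD4 T cells had them in 26.4% and 27.8% at 30 °C and 27.7% and 27.0% at 4 °C, and the intervals overlapped those of regulatory T cells in every library but library 2 of 4 °C. B cells had a Chat UMI in 13.4% and 14.0% at 30 °C and 21.7% and 20.1% at 4 °C. Stromal cells, taken as a class that should lack the enzyme, had none in 15, 14, 26 and 18 cells, numbers so small that the exact upper limits were 13.2% to 23.2%. Their median depth before thinning was 3627 to 11955 UMIs. The stromal cells thus set no tight limit on stray Chat RNA.

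The rest of the acetylcholine machinery was sparse in regulatory T cells. Of 15 listed genes 6 were tested and none passed the threshold (median -0.03). The vesicular acetylcholine transporter Slc18a3 had 2.20 to 4.41 CPM in the 4 libraries. The degrading enzyme Ache had 0, 0, 0.239 and 0 CPM, and Bche, the choline transporter Slc5a7 and the nicotinic receptors Chrna2 and Chrna7 had no UMI. Chka, the choline kinase, and Slc44a2, a choline transporter-like protein, were measured more deeply and did not pass the test (0.25 and -0.11).

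**Figure D4:**
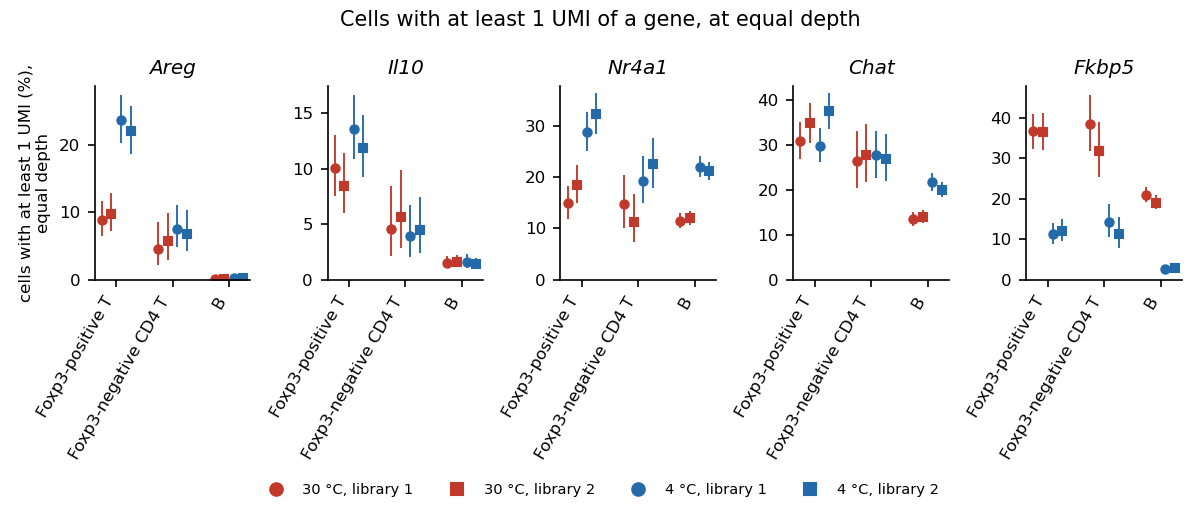
The vertical axis gives the percentage of cells with at least 1 UMI of Areg, Il10, Nr4a1, Chat or Fkbp5 after each cell was thinned to 3600 UMIs, for regulatory T cells, Foxp3-negative CD4 T cells and B cells of each library, with exact 95% intervals for counting error. The Areg shares of regulatory T cells at 4 °C, 23.7% and 22.1%, lie above every other share of that gene, while the Chat shares of regulatory T cells overlap between temperatures.

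Regulatory T cells were set beside 1083 CD4 T cells without Foxp3 from the same libraries, which had at least 2 CD3 UMIs, a Cd4 UMI and no UMI of Foxp3, Cxcr5 or the excluded genes. These numbered 213 and 235 at 30 °C and 328 and 307 at 4 °C, with a median of 5302 to 6177 UMIs, and their CPM are scaled to their own summed UMIs. Since Foxp3 UMIs made the split, differences in level between the classes are given as a description, without a test. Of the 9912 genes in both, 21.1% had a higher level in regulatory T cells in all 4 libraries and 13.6% a lower one. Of the 20 identity genes 18 had higher levels in regulatory T cells in all 4 libraries, by 4.83 to 8.43 times for Lrrc32 and 3.32 to 6.88 times for Il2ra. Of the 32 tissue genes 22 had higher levels in all 4, such as Il1rl1 (3.26 to 12.7 times), Klrg1 (4.26 to 9.46 times) and the integrin Itgae (2.94 to 4.77 times). The tissue genes Cxcr6, Il18r1, Il9r and Anxa2 were lower in all 4. Cells that transcribed Foxp3 but yielded no UMI also fall in the second class, and only 248 of its cells had no UMI of Ikzf2, Ctla4 or Il2ra either.

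The change at 4 °C could be compared between the classes by a test of its difference. Of 9912 genes tested, 41 or 0.414% differed in their change in edgeR's test, with library as a term. DESeq2 gave 0 differences past the threshold, and 59 at an unadjusted p under 0.05, so every difference called below was lost with that tool. Within the Foxp3-negative class 116 of 8723 genes (1.33%) changed. Both classes shared the same pools of mice.

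Il7r fell in both, and more in regulatory T cells. In Foxp3-negative cells it had 755 and 612 CPM at 30 °C against 302 and 335 CPM at 4 °C. The log2 change was -1.58 in regulatory T cells and -1.15 in the others, a difference of -0.44 (SE 0.09, adjusted p = 0.0119). Zfp36l2 changed alike, with -1.38 and -0.97 and a difference of -0.41 (SE 0.08, adjusted p = 0.0119). Klf2 fell in regulatory T cells and was at 218 and 269 CPM at 30 °C against 246 and 270 CPM at 4 °C in the others (difference -0.68, SE 0.14, adjusted p = 0.0119). None of the 3 differences passed when the second class was narrowed to the 248 cells (-0.66 for Il7r, -0.63 for Zfp36l2 and -0.70 for Klf2). That of Klf2 was also lost without library 1 of 30 °C (-0.44) or library 2 of 4 °C (-0.53), and that of Zfp36l2 without library 2 of 4 °C (-0.27).

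Isg15 differed in the other direction. In Foxp3-negative cells it had 132 and 42.2 CPM at 30 °C against 108 and 76.3 CPM at 4 °C, so their warm pools were far apart. The difference of the change was 1.10 (SE 0.22, adjusted p = 0.0132), and without library 1 of 30 °C it was 0.43 (adjusted p = 0.764). The AP-1 genes Fos and Jund, named after their values were seen, also had higher changes in regulatory T cells, with differences of 0.67 and 0.29, and the log2 change of Fos in Foxp3-negative cells was -0.16.

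Other responses were not shown to differ. Areg in Foxp3-negative cells had 15.6 and 40.7 CPM at 30 °C against 56.5 and 53.6 CPM at 4 °C, and the difference of its change, 1.00 (SE 0.27), missed the threshold (adjusted p = 0.147). It passed without Scrublet doublets (1.01, adjusted p = 0.042), without a filter on low counts (1.02) and without library 1 of 30 °C (1.67) or either library of 4 °C (1.05 and 0.95). Without library 2 of 30 °C it was 0.036, and against the 248 narrower cells its direction turned (-0.64). Il10 had a difference of 0.73 (adjusted p = 0.335) and Nr4a1 one of 0.49 (adjusted p = 0.435). Fkbp5 fell by 1.96 in regulatory T cells and by 2.09 in the others on the log2 scale (difference 0.14, adjusted p = 0.946). Chat, at 100 to 108 CPM in the 4 libraries of Foxp3-negative cells, had a difference of 0.05 (SE 0.16, adjusted p = 0.98).

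**Figure D5:**
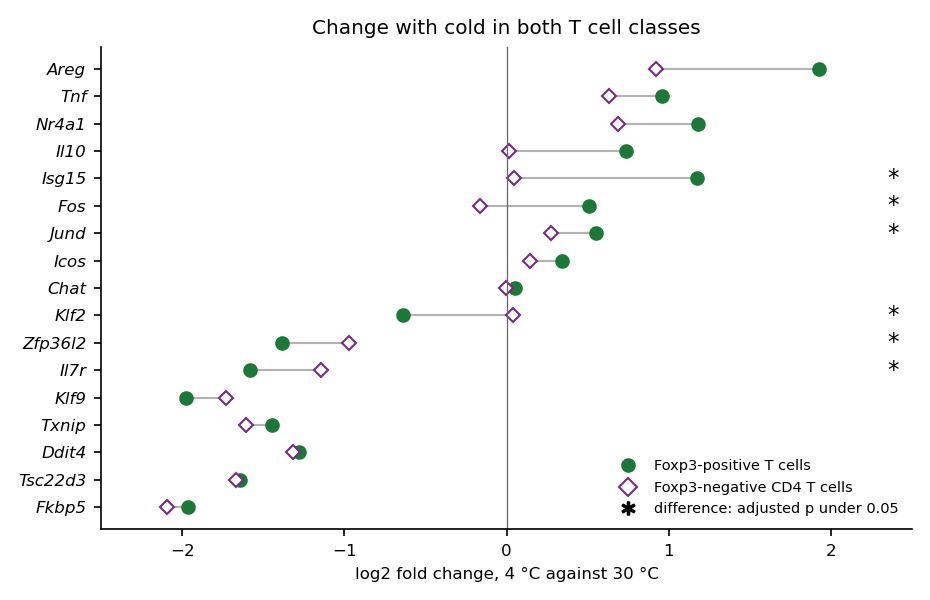
The horizontal axis gives the log2 change, 4 °C over 30 °C, of 17 genes in regulatory T cells (green circles) and in Foxp3-negative CD4 T cells (open purple diamonds), and an asterisk marks genes whose changes differed between the classes at an adjusted p under 0.05 in edgeR's test. Il7r, Zfp36l2 and Klf2 lie further to the left in regulatory T cells and Isg15, Fos and Jund further to the right, while Fkbp5 and Chat nearly coincide.

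The share of regulatory T cells among the T cells that met the CD3 and exclusion conditions was 45.7% and 41.1% at 30 °C and 42.0% and 43.0% at 4 °C. The means were 43.4% ± 3.26 (SD, n = 2) and 42.5% ± 0.717 (SD, n = 2), and the difference of -0.847 percentage points was smaller than the spread at 30 °C (p = 1, two-sided exact permutation test). With every cell thinned to equal depth before the rule was applied, the means were 38.3% and 37.0%.

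Markers of other cells were measured in the regulatory T cells because droplets can hold stray RNA or a second cell. B cell markers, 9 of 10 tested, summed to 2282 and 3098 CPM at 30 °C against 2523 and 2332 CPM at 4 °C, led by Ighm, and none passed the test. Plasma cell markers, led by Igha, summed to 291 and 729 CPM at 30 °C against 152 and 301 CPM at 4 °C, and none of 4 tested passed. Library 2 of 30 °C was the highest in both. Dendritic cell markers, led by Ccl22, summed to 15.3 and 163 CPM at 30 °C against 17.2 and 8.05 CPM at 4 °C.

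Macrophage markers summed to 71.3 and 39.0 CPM at 30 °C against 117 and 31.9 CPM at 4 °C. Their most abundant gene in library 1 of 4 °C was Lyz2, and of 3 tested Apoe fell (log2 change -0.97, adjusted p = 0.0389), a call lost without library 1 of 30 °C or either library of 4 °C (-0.98 to -0.57). Adipocyte markers, led by Fabp4, summed to 68.7 and 5.98 CPM at 30 °C against 2.87 and 39.7 CPM at 4 °C. Macrophage markers were thus highest in library 1 of 4 °C and adipocyte markers in library 1 of 30 °C. The markers of CD8 T cells, γδ T cells, ILC2, NK cells, stromal cells and endothelial cells each summed to at most 46.9 CPM in any library, with Rxrg of the ILC2 list and Ncr1 and Klra1 of the NK list at 0, and none of those tested passed. Erythrocyte markers reached 2.52 CPM, with Hbb-bs at 0. Without the 551 cells that had a UMI of Cd79b, Ms4a1, C1qb, Lyz2, Cd8a or Tcrg-C1, Areg rose by 1.71. In that setting 444 genes passed the test, among them 290 of the 312 in the same direction. Cells with UMIs of only other markers above, such as Ccl22, Igha or Fabp4, were kept.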

How the data were processed

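The authors deposited, for each library, UMI counts per gene and cell barcode, whole numbers without normalization. The file headers name Cell Ranger 3.0.0, while the submitters' processing notes name Cell Ranger 3.1.0, STAR, Seurat 4.2.0 and the mm10 genome. Total counts were 76058112 and 84317319 UMIs at 30 °C against 80973104 and 84468931 UMIs at 4 °C. Limits on genes and mitochondrial UMIs per cell came from the rule above, and Scrublet (scanpy 1.11.5), run as a check, marked 13 regulatory T cells, which were kept.

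Counts were summed per library and fitted with edgeR 4.0.16 (R 4.3.3; filterByExpr, TMM, quasi-likelihood test, temperature as the term), because cells of a library are not replicates. Libraries of 1 temperature differed by more than sampling noise. DESeq2 1.42.0 was an alternative. Shares of cells used cells thinned to 3600 UMIs, exact binomial 95% intervals and exact permutation tests over libraries (scipy 1.17.1). The steps were tested on simulated data.

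The cells, the 33 gene lists and 2 further lists taken by symbol pattern (ribosomal proteins and oxidative phosphorylation) were chosen with earlier results of these data known. Lists are described by counts and medians, without set tests. Genes were named if they were among the 10 largest rises or falls past the threshold with separate groups, among up to 4 largest called members or the most abundant member of a list, a marker or Chat, or among the 5 largest differences between classes in each direction. Immunoglobulin genes, genes the rule used and genes without a proper name were not named among rises and falls. Further genes were named after their values were seen, to complete a count or because they define a pathway (among them Nr3c1, Per1, Dusp1, Ccr7, Il2ra, Lrrc32, Trp53inp1, Sesn1, Ier5, Slc18a3 and Ache). Gene positions are from the GENCODE annotation of GRCm38 (mm10) and promoters from RefSeq. Alternatives changed the cell filters, the Foxp3 and CD3 minima, scaling, the low-count filter, subsets of the cells and the libraries entered. Some planned results, a subset of the cells and a share of cells among them, are not reported here.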

Additional observations from a re-analysis of the deposited data

Results flagged for a closer look

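The change at 4 °C differed between regulatory T cells and Foxp3-negative CD4 T cells, by edgeR's test of the difference, in 41 of 9912 genes. The differences below are log2 values, regulatory minus Foxp3-negative. Among moderate differences in genes carried by many cells were those of Il7r (-0.44), Klf2 (-0.68), Zfp36l2 (-0.41), Isg15 (1.10) and the histone variant H2afz (-0.44). H2afz had 1080 and 1254 CPM in regulatory T cells at 30 °C and 780.5 and 730.8 CPM at 4 °C, and in the other class 849 and 716 CPM at 30 °C against 689 and 695 CPM at 4 °C.

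Several of the largest differences belonged to genes with few molecules, or with most molecules of a library in a single cell. With at least 10 UMIs in every library, 7572 genes were tested and 29 differed, 23 of them among the 41. No gene named in this paragraph was tested there, as each had fewer than 10 UMIs in some library of a class. The endothelial genes Cldn5 (10.07), Kdr (9.86), Plvap (6.89) and Tm4sf1 (6.02) had 17, 50, 65 and 63 UMIs in the regulatory T cells of library 2 of 4 °C, where 48 of the Kdr UMIs and 58 of the Plvap UMIs came from 1 cell. They had 12, 14, 10 and 33 UMIs in the Foxp3-negative cells of library 1 of 30 °C and at most 1 UMI in the other libraries of that class. Tm4sf1 also had 36 UMIs in the regulatory T cells of library 1 of 30 °C. The protease gene Gzma (6.11) had 263 of its 264 UMIs in library 1 of 4 °C in 1 cell, and without that library the difference was -0.41. Genes of activated dendritic cells, Ccl22 (-8.91) and Fscn1 (-4.30), went the other way, with 386 of the 411 Ccl22 UMIs of library 2 of 30 °C in 1 cell. The chemokine Ccl1 (-7.97) had 461 and 23 UMIs in the Foxp3-negative cells at 4 °C against 1 and 0 UMIs at 30 °C. Most of its UMIs in that class thus came from library 1 of 4 °C. In regulatory T cells it had 31 and 0 UMIs at 30 °C against 27 and 10 UMIs at 4 °C. Ly6c2 (-5.75) and Stfa3 (-4.51) had 83 and 81 UMIs in the Foxp3-negative cells of library 2 of 4 °C, and at most 14 UMIs in any other library of that class.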

How the results depend on the processing

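With 2 libraries per temperature the tests see only large or steady changes, and leaving out a library leaves 1 library in a group, which is then assumed to vary like the others. The rises of Areg (1.71 to 2.31) and Nr4a1 (0.94 to 1.41) and the falls of Fkbp5 (-2.08 to -1.72), Il7r (-1.79 to -1.26), Zfp36l2 (-1.48 to -1.26) and Txnip (-1.66 to -1.19) passed the threshold in all 20 alternatives. Over all named genes other than Chat, 1177 values kept direction and side of the threshold, 171 fell short of it, 4 newly passed and 10 changed sign. Of the differences between classes 214, 58, 5 and 7 did so. Both tallies leave out any setting in which a gene had no adjusted p, so such genes are not counted as lost. Keeping Top2a-positive cells, splitting by Il1rl1 or Klrg1, leaving out immunoglobulin genes and crossing the replicate numbers were chosen after seeing the data.

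Against 312 genes called (126 higher and 186 lower), DESeq2 called 173 (71 and 102) of the 3301 to which it gave an adjusted p, 162 of them among the 312. Without a filter on low counts the numbers were 747 (391 and 356) and in cells with an Il1rl1 or Klrg1 UMI, a smaller set, 47 (14 and 33). Without cells carrying UMIs of other types 193 genes were higher. With Top2a-positive cells kept 270 were called (118 and 152), and only 194 of the 312 were among them in the same direction. Leaving out 1 library gave 216 to 276 called, 79 to 113 higher and 137 to 163 lower, with 79 higher without library 1 of 30 °C. Against 41 differences between classes, there were 17 with at least 2 Foxp3 UMIs, 64 without Scrublet doublets, 27 without cells carrying UMIs of other types, 87 without a filter, 29 with at least 10 UMIs in every library, 5 against the 248 narrower cells, and 52 to 89 on leaving out 1 library. DESeq2 gave 0 differences, with 59 at an unadjusted p under 0.05. The totals on leaving out 1 library do not count the same genes. Each time many of the 312 genes were no longer called and others entered. Some of the 41 differences were also lost each time, although the totals were above 41. The causes were not tested.

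Same-numbered libraries did not deviate together (r = -0.156 over 9954 genes, which are not independent). With 2 libraries per temperature this is a single comparison, so it cannot settle whether the numbers pair the libraries. With a replicate block 357 genes were called (151 and 206), 302 of them among the 312, and the Chat change was 0.05. With crossed numbers 677 were called (304 and 373).

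Some values changed sign, most of them near 0. The change of Chat was -0.0065 in cells without Il1rl1 or Klrg1 UMIs and -0.15 to 0.24 on leaving out 1 library (-0.05 without library 1 of 30 °C). That of Ctla4 was 0.051 with at least 2 Foxp3 UMIs, 0.00144 in DESeq2, 0.034 by library size, 0.014 without a filter, 0.074 with Top2a-positive cells, 0.00323 in cells without Il1rl1 or Klrg1 UMIs, and -0.10 to 0.083 on leaving out 1 library. Ikzf2 was at -0.00147 in cells without Il1rl1 or Klrg1 UMIs, and Hsp90aa1 at -0.00395 with Top2a-positive cells. The difference between classes was -0.64 for Areg and -0.66 for Chat against the 248 narrower cells, -0.12 for Chat without cells carrying UMIs of other types, and, on leaving out 1 library, -0.015 to 0.26 for Fkbp5, -0.14 to 0.24 for Chat and -0.41 to 8.43 for Gzma. The difference for Areg passed the threshold without Scrublet doublets (1.01, adjusted p = 0.042) and on leaving out library 1 of 30 °C (1.67).

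Differences of shares, in percentage points, were -0.377 for Chat with at least 2 Foxp3 UMIs (-3.02 to 4.65 on leaving out 1 library) and 0.525 for regulatory T cells among T cells with at least 2 Foxp3 UMIs (-3.15 to 1.46).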

Other observations

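Genes of cell growth and maintenance, not described so far, moved in parts. Of 19 listed cold-inducible and heat shock genes 18 were tested, 3 rose and 2 fell (median 0.10). Cirbp, the cold-inducible RNA-binding protein, went from 349 and 293 CPM at 30 °C to 157 and 144 CPM at 4 °C (log2 change -1.14, SE 0.09, adjusted p = 8.95e-05). Rbm3, its relative, fell by 0.32 (adjusted p = 0.0227) on the log2 scale. Both were thus lower after the cold step. The chaperones Dnaja1 (0.49, adjusted p = 0.0108), Hspa5 (0.47, adjusted p = 0.00472) and Hsp90aa1 (0.34, adjusted p = 0.0272) rose. With Top2a-positive cells kept, the rise of Hsp90aa1 was lost and its sign turned.

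Cpt1a, the gate of fatty acid oxidation in mitochondria, went from 43.9 and 42.1 CPM at 30 °C to 20.6 and 17.7 CPM at 4 °C (log2 change -1.21, SE 0.15, adjusted p = 0.00166). Of 24 tested lipid genes Scd2, a fatty acid desaturase, rose (0.86, adjusted p = 0.00809) and Ucp2 fell (-0.27, adjusted p = 0.0199), with a median of 0.13. None of 19 glycolysis genes (median -0.04) and none of 75 tested genes of oxidative phosphorylation (median -0.02) passed. Of 81 tested cytosolic ribosomal protein genes 16 fell and none rose (median -0.11), such as Rps29 (-0.24, adjusted p = 0.00347), and 9 fell by library size scaling (median -0.07). That number ran from 1 without library 2 of 30 °C to 37 without library 1 of 4 °C. Of 23 cell cycle genes 5 fell and 1 rose (median -0.22) in cells chosen to lack Top2a, among them H2afz (-0.67, adjusted p = 0.000652) and Birc5 (-1.16, adjusted p = 0.00614). With Top2a-positive cells kept, 1 fell and 1 rose (median -0.32) and Birc5 changed by -0.45 (adjusted p = 0.216).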
